A study of Arabidopsis thaliana with 12 samples.

Results

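Late embryogenesis abundant (LEA) proteins and dehydrins were followed in RNA sequencing data of whole Arabidopsis thaliana seedlings. The members were the genes whose deposited description contains "late embryogenesis abundant" or "dehydrin", without 10 well-known LEA, dehydrin and cold-regulated genes that the rule leaves out. This gave 81 of the 32833 genes in the deposited table. By the wording of their descriptions they comprised 7 dehydrins, 35 hydroxyproline-rich glycoproteins of the LEA type and 39 other LEA proteins. After a filter that asked for 1 normalized fragment or more in 3 or more libraries, 71 members were tested, namely all 7 dehydrins, 30 hydroxyproline-rich members and 34 other LEA members. Of the 10 members not tested, 3 were at 0 in all 12 libraries.

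Seedlings were 7 days old and came from the wild type Col-0 (wt) and from the triple mutant hop1 hop2 hop3, written hop_tm in the labels and shortened here to hop. HOP proteins are co-chaperones that pass client proteins from HSP70 to HSP90. Plants of each genotype were kept under control conditions or spent their last 3 h at 38 °C, which gave 4 groups (wt control, wt heat, hop control, hop heat) of 3 libraries each. The labels name no allele, no transgene and no separate cultures behind the replicates, so the p-values measure the spread between these libraries, which may be technical. Libraries held 26.1 to 38.7 M fragments. HOP2 (AT1G62740) had 483 to 635 normalized fragments in wt control and 6.36 to 7.68 in hop control, and HOP3 (AT4G12400) had 75.2 to 88.5 and 0 to 9.39. HOP1 (AT1G12270) had 538 to 726 in wt control and 554 to 676 in hop control, so its transcript level did not separate the genotypes there. Under heat HOP2 reached 4046 to 5128 in the libraries labelled hop, HOP3 reached 1216 to 1346 and HOP1 reached 1654 to 2299. In wt heat HOP2 held 7318 to 8629, HOP3 89090 to 122589 and HOP1 991 to 1359. HOP2 and HOP3 thus stayed below wt in heat, and HOP1 lay above it. Whole seedlings mix all organs, and fewer cells of a type and less RNA per cell cannot be told apart.

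LEA proteins are hydrophilic and mostly disordered in solution. They accumulate late in seed development, when the embryo prepares for drying, and in leaves and roots exposed to drought, cold, salt or abscisic acid. Dehydrins are a lysine-rich branch of the family that binds membranes and metal ions. The hydroxyproline-rich members belong to a folded branch related to the immune protein NDR1, and many of them sit in the plasma membrane. Genes of the disordered branches are known to be switched on through abscisic acid response elements (ABRE), which share the core ACGTG and are bound by bZIP factors, and through the drought response element (DRE) with the core CCGAC, bound by DREB and CBF factors.

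The promoters of 6 members that carry the genotype and heat results are shown, as the 250 bases before the annotated gene start. They are the 5 members higher in hop in both conditions (LEA7, AT3G02480, AT3G17520, AT4G36600 and AT2G42560) and the dehydrin XERO2. Sequences are from the RefSeq annotation of the TAIR10.1 genome, matched by locus tag, because the deposited table holds no coordinates and names no build. All 81 members had an entry there. Each sequence runs 5′ to 3′ on the strand of its gene, and capitals mark the ABRE core ACGTG read on either strand (CACGT on the other).
LEA7 (AT1G52690), chr1:19619474-19619723, plus strand: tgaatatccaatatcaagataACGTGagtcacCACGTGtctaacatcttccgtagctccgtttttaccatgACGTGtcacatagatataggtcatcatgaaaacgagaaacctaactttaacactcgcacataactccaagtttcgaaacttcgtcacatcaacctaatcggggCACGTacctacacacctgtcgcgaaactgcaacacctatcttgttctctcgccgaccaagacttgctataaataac
AT3G02480, chr3:511970-512219, plus strand: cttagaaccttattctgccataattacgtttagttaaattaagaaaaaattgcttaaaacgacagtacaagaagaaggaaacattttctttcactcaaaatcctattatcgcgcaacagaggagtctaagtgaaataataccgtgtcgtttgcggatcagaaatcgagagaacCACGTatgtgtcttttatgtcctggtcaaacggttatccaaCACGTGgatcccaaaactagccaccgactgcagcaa
AT3G17520, chr3:6000448-6000697, minus strand: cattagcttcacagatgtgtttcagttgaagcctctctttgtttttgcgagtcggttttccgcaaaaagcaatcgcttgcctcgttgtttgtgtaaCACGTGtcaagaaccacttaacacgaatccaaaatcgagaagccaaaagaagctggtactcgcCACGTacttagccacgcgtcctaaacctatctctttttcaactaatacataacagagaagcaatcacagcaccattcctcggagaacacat
AT4G36600, chr4:17263314-17263563, plus strand: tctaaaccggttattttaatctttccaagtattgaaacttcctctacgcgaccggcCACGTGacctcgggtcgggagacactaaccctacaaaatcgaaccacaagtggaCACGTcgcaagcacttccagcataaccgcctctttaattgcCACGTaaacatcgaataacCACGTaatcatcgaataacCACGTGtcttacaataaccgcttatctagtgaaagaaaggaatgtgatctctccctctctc
AT2G42560, chr2:17716913-17717162, minus strand: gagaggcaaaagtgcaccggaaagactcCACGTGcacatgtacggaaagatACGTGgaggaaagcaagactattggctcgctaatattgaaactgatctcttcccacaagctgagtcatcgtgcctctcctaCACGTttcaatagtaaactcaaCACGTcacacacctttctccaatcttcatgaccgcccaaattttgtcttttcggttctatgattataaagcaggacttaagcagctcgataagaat
XERO2 (AT3G50970), chr3:18940393-18940642, plus strand: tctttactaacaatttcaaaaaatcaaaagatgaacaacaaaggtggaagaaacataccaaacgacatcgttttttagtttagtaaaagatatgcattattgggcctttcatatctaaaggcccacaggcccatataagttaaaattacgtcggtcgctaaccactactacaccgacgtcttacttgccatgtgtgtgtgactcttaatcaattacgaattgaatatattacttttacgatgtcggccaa

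Matches that overlap, as in the palindrome CACGTG, were counted as 1 place. In these 250 bases AT4G36600 had 5 such places, LEA7 and AT2G42560 had 4 each, and AT3G02480 and AT3G17520 had 2 each. XERO2 had no ABRE core in this stretch, and 3 places with the DRE core. LEA7, AT3G02480, AT3G17520 and AT4G36600 had 1 place each with the DRE core there, and AT2G42560 had 0. Over the wider window of 250 bases before to 50 after the start, the ABRE core on either strand was present in 40 of the 81 members (49.4%) and in 26.7% of the 27443 promoters of the nuclear protein-coding genes in the deposited table. All 7 dehydrins, 22 of the 39 other LEA members and 11 of the 35 hydroxyproline-rich members held it. The DRE core CCGAC on either strand was present in 18 members (22.2%) against 15.1% of all promoters. It was found in 3 dehydrins, 14 other LEA members and 1 hydroxyproline-rich member. The heat shock element GAANNTTC, the letters that heat shock factors bind as repeats, was in 12 members (14.8%) against 11.6% of all promoters. Among the promoters shown, LEA7 and AT4G36600 held 1 such place each in the 250 bases before the start. With the 250 bases before the start alone, the ABRE core was in 37 members (45.7%) against 22.9%. A match is a run of letters and not a measured binding site.

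**Figure D1:**
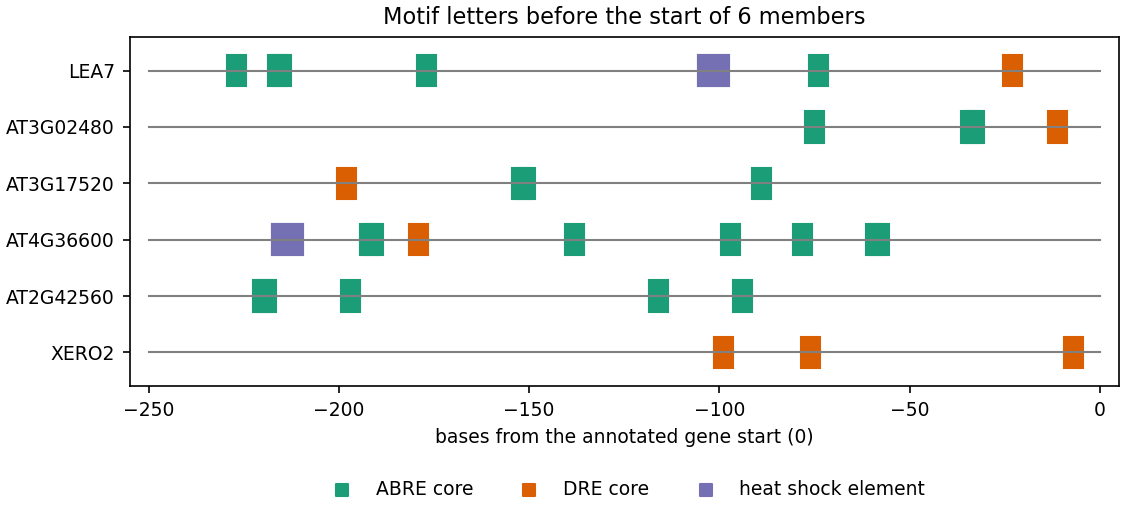
Positions of 3 kinds of motif letters in the 250 bases before the annotated start of 6 members, either strand; the x axis gives bases from the start at 0, and boxes are matches (ABRE core ACGTG, DRE core CCGAC, heat shock element GAANNTTC), merged where they overlap. AT4G36600 holds 5 ABRE core places, and XERO2 holds none and 3 DRE core places. LEA7, AT3G02480, AT3G17520 and AT4G36600 hold 1 DRE core place each.

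Levels spanned a wide range. The mean over all 12 libraries was at least 1000 normalized fragments in 6 members, at least 100 in 25, and under 10 in 31. Normalized fragments are fragment counts divided by 1 size factor per library. Members together took 0.111% to 0.158% of all fragments in a library. Per kb of transcript, HIRD11 (AT1G54410), a small histidine-rich dehydrin that binds metal ions, and ERD14 (AT1G76180), an acidic dehydrin named for its early response to dehydration, had the highest mean levels in wt control, at 7851 and 7263 normalized fragments per kb. AT2G44060 (LEA26) had 3038, AT2G23120 (a LEA protein of group 6) 2647 and XERO2 1297 on the same scale. In wt heat the order was ERD14 at 13740, AT2G23120 at 9428, XERO2 at 7594 and AT2G44060 at 5263 per kb. HIRD11 was then at 1793 per kb.

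Heat changed most of the tested members, in both directions. In wt, 27 members rose and 19 fell, at a Benjamini-Hochberg adjusted p under 0.05 in limma. Of all 23827 tested genes, 69% were called in this comparison (33.2% higher, 35.8% lower), so the share of members called (64.8%) was near the background. In hop, 26 members rose and 18 fell, against 68.5% of all genes called (33.3% higher, 35.2% lower). The median log2 fold change of the members was 0.35 in wt and 0.21 in hop, and that of all tested genes was -0.08 and -0.06. When libraries were scaled by their total alone in edgeR, 16 members rose and 26 fell in wt, and 14 rose and 35 fell in hop. That scaling gave a median of all genes of -0.94 in wt and -0.97 in hop, against -0.12 and -0.15 in edgeR with TMM scaling, and a members' median of -0.58 and -0.68, so relative to all genes the members stood 0.36 and 0.29 higher. Both genotypes shared 24 of the risers (24 of 27 in wt, 24 of 26 in hop) and 16 of the fallers (16 of 19 and 16 of 18), and no member rose in one genotype and fell in the other.

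Counts by subgroup are given beside the shares of all genes called, 33.2% higher and 35.8% lower in wt. Of the 34 other LEA members tested, 15 rose (44.1%) and 6 fell (17.6%) in each genotype, with a median log2 fold change of 0.60 in wt and 0.79 in hop. Of the 7 dehydrins, 4 rose and 1 fell in each genotype, with medians of 0.94 and 0.86. Of the 30 hydroxyproline-rich members, 8 rose (26.7%) and 12 fell (40.0%) in wt and 7 rose and 11 fell in hop, shares near those of all genes, with medians of -0.49 and -0.70. Under scaling by library total alone, 11 other LEA members rose and 8 fell in wt (10 and 10 in hop), 3 dehydrins rose and 1 fell (2 and 1), and 2 hydroxyproline-rich members rose and 17 fell (2 and 24). No test compared the subgroups with each other.

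**Figure D2:**
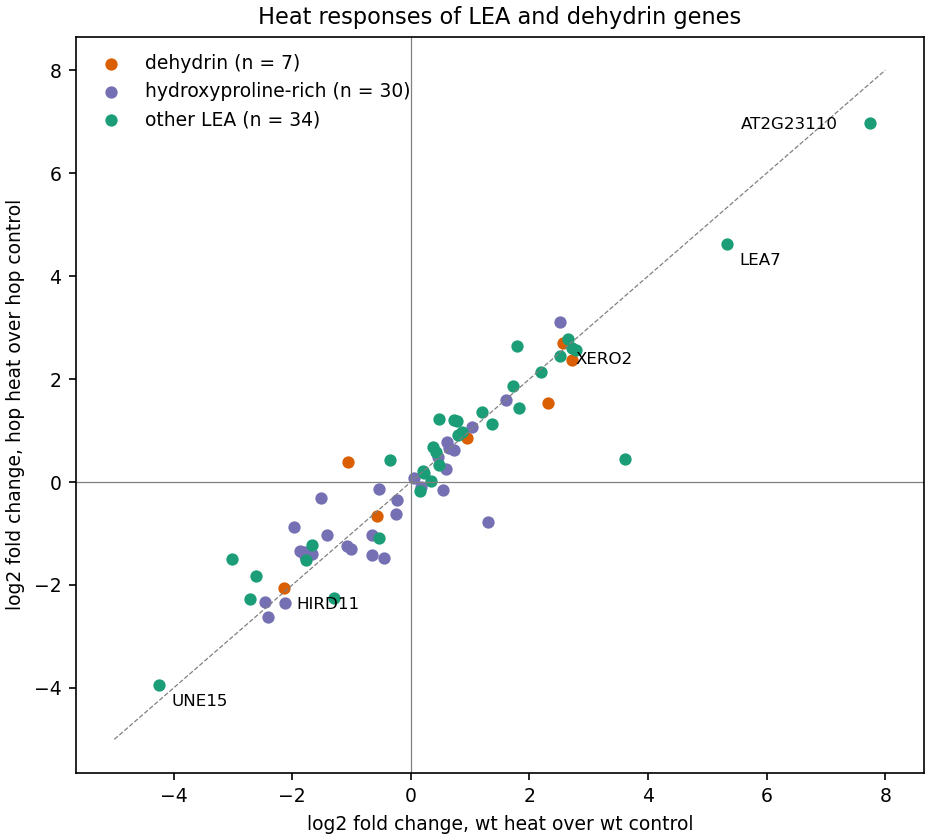
Log2 fold change in heat of the 71 tested members, wt on the x axis and hop on the y axis, coloured by subgroup; each point is 1 gene and the dashed line marks equal responses. AT2G23110 and LEA7 stand at the upper right (7.75 and 5.34 in wt) and UNE15 at the lower left (-4.25 in wt).

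The largest rise was that of AT2G23110, a LEA protein of group 6. It had 4.56, 3.07 and 5.01 normalized fragments in the wt control libraries and 1171, 1057 and 1087 in wt heat. In hop it had 8.54, 7.78 and 10.4 at control and 1167, 1306 and 1232 in heat. Heat and control libraries were far apart in both genotypes. The log2 fold change was 7.75 ± 0.17 (SE, adjusted p = 6.1e-15) in wt and 6.97 ± 0.17 (adjusted p = 1.9e-14) in hop. Its neighbour AT2G23120, also of group 6, lies 475 bases away on the same strand and has a far higher base level. It had 2102, 2023 and 2172 in wt control and 7549, 7161 and 7721 in wt heat, and 2247, 2261 and 2341 in hop control and 5871, 6003 and 6679 in hop heat. Its heat libraries did not overlap its controls, and the log2 fold changes were 1.83 ± 0.08 in wt and 1.44 ± 0.08 in hop. AT2G23120 overlaps AT2G23118 on the opposite strand by 144 bases, so its reads depend on the strand setting of the counting. The deposited table is titled stranded, and the setting itself is not given.

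LEA7 (AT1G52690) had the next largest rise, and its gene overlaps AT1G52695 on the opposite strand by 297 bases. Its libraries held 39.2, 36.3 and 40.8 in wt control, 1816, 1423 and 1597 in wt heat, 96.5, 116 and 87.1 in hop control, and 2181, 2976 and 2299 in hop heat. The 4 groups did not overlap at any point. The rise in heat was 5.34 ± 0.14 on the log2 scale in wt and 4.62 ± 0.14 in hop. AT3G02480 held 107, 91.5 and 98.8 in wt control and 521, 763 and 721 in wt heat, and 247, 253 and 199 in hop control and 1254, 1576 and 1404 in hop heat. Here too the 4 groups were apart, and the rises were 2.72 ± 0.15 in wt and 2.60 ± 0.15 in hop.

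LEA4-5 (AT5G06760), which protects enzymes from inactivation during drying in the test tube, rose by 2.65 ± 0.34 in wt and 2.79 ± 0.34 in hop on the log2 scale. It held 59.3, 27 and 45.1 in wt control, 218, 395 and 221 in wt heat, 113, 55.9 and 62.4 in hop control, and 525, 647 and 394 in hop heat. Heat libraries lay above the controls of their genotype without overlap. Its relatives LEA18 (AT2G35300, also LEA4-2) and AtLEA4-1 (AT1G32560) rose less, by 1.20 ± 0.35 and 1.36 ± 0.33 in wt and by 1.35 ± 0.35 and 1.12 ± 0.33 in hop. By library total alone neither was called, at 0.48 and 0.52 in wt and 0.43 and 0.28 in hop.

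AT4G36600 rose by 2.78 ± 0.31 in wt and 2.56 ± 0.31 in hop on the log2 scale. Its libraries held 9.13, 7.37 and 3.58 in wt control, 51.5, 44.7 and 51.4 in wt heat, 23.1, 21.9 and 11.7 in hop control, and 106, 110 and 120 in hop heat. AT1G72100, with a LEA domain, rose from 4.56, 2.46 and 2.86 to 13.2, 41.4 and 22.4 in wt and from 17.9, 13.4 and 4.55 to 50.4, 79.8 and 57.8 in hop, by 2.52 ± 0.46 and 2.44 ± 0.46. Neither gene had a heat library within the control range of its genotype. M17 (AT2G41260) was called in wt alone, with 2.74, 3.07 and 0 at control and 5.29, 86.0 and 50.1 in heat (3.61 ± 0.94, adjusted p = 0.0051). In hop it held 21.3, 31.1 and 15.6 at control and 11.9, 37.7 and 58.8 in heat (0.44 ± 0.94, adjusted p = 0.69). The groups overlapped in hop, and the difference of both responses was not called (adjusted p = 0.479).

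Among the dehydrins, XERO2 (AT3G50970, also LTI30), a cold-induced dehydrin that binds membranes, rose most among those of high level. It held 1482, 1051 and 1239 in wt control and 7290, 7384 and 7402 in wt heat, and 1411, 1066 and 1499 in hop control and 8532, 9872 and 7401 in hop heat. Groups did not overlap between conditions, and the log2 fold changes were 2.56 ± 0.14 and 2.70 ± 0.14. XERO1 (AT3G50980), 313 bases away on the same strand, rose by 2.31 ± 0.44 in wt and 1.53 ± 0.44 in hop, the latter not called by library total alone (0.60, adjusted p = 0.16). The dehydrin AT2G21490 held 0.913, 0.614 and 5.01 in wt control and 5.29, 33.1 and 23.7 in wt heat, and 11.1, 12.7 and 1.95 in hop control and 31.8, 55.1 and 36.1 in hop heat. Its lowest wt heat library was close to its highest control library, and the log2 fold changes were 2.72 ± 0.71 and 2.37 ± 0.71.

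ERD14 held 10539, 6647 and 8481 in wt control and 15140, 17548 and 15868 in wt heat, and 9168, 6919 and 9424 in hop control and 15542, 17403 and 13217 in hop heat. The conditions did not overlap, and the fold changes of 0.94 ± 0.16 in wt and 0.86 ± 0.16 in hop on the log2 scale became 0.05 and -0.08 and were not called by library total alone. HIRD11 was the dehydrin that fell, and it varied widely among control libraries. It held 5178, 10496 and 10539 in wt control and 2260, 1153 and 2573 in wt heat, and 4397, 6447 and 11501 in hop control and 1397, 1284 and 2537 in hop heat. All heat libraries lay below all controls, with falls of 2.14 ± 0.48 and 2.05 ± 0.48 on the log2 scale. The other 2 dehydrins, AT4G38410 and AT4G39130, did not exceed 8.26 in any library and were not called.

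The steepest fall was that of UNE15 (AT4G13560), a LEA gene named after a collection of mutants with unfertilised embryo sacs. It held 127, 196 and 170 in wt control and 5.29, 14.9 and 5.27 in wt heat, and 207, 257 and 201 in hop control and 13.3, 14.5 and 12.4 in hop heat. Conditions were far apart, and the falls were 4.25 ± 0.31 in wt and 3.95 ± 0.31 in hop on the log2 scale. UNE15 shares 125 bases on the same strand with the microRNA locus AT4G06110, so part of its reads could belong to either.

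Members described as LEA-related or as group 2 supplied the other falls outside the glycoproteins. AT5G54370 held 249, 196 and 166 in wt control and 38.3, 18.2 and 46.1 in wt heat, and 196, 183 and 291 in hop control and 43.7, 45.0 and 117 in hop heat. It fell by 2.62 ± 0.40 in wt and 1.82 ± 0.40 in hop without overlap of the conditions. AT2G41990 held 144, 138 and 173 in wt control and 41.0, 13.2 and 19.8 in wt heat, and 148, 156 and 153 in hop control and 39.8, 33.4 and 21.7 in hop heat. It fell by 2.71 ± 0.31 and 2.27 ± 0.31. AT4G27400 held 21.9, 22.1 and 12.9 in wt control and 0, 4.96 and 1.32 in wt heat, and 17.1, 17 and 27.9 in hop control and 6.63, 4.35 and 9.29 in hop heat. Its falls were 3.02 ± 0.52 in wt and 1.5 ± 0.52 in hop, and the call in hop was lost without hop control replicate 3 (adjusted p = 0.075) or hop heat replicate 2 (adjusted p = 0.077). AT3G08490, of group 2, fell from 8.21, 6.14 and 7.16 to 1.32, 3.31 and 2.64 in wt and from 13.7, 9.90 and 11.7 to 1.33, 2.90 and 1.03 in hop, and its call in wt was lost in DESeq2 (adjusted p = 0.075). AT2G44060, the other tested gene worded as group 2, rose from 4632, 4126 and 4165 to 7513, 7700 and 7178 in wt and from 4692, 4363 and 4179 to 8141, 8448 and 8315 in hop, by 0.79 ± 0.09 and 0.91 ± 0.09, which became -0.09 and -0.01 and was not called by library total alone.

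Of the hydroxyproline-rich members, AT3G54200 had the highest level among those that fell. It held 528, 474 and 405 in wt control and 76.7, 111 and 69.9 in wt heat, and 498, 467 and 256 in hop control and 66.3, 84.2 and 81.5 in hop heat. The conditions did not overlap, and the falls were 2.46 ± 0.23 in wt and 2.33 ± 0.23 in hop. AT3G44380 held 81.2, 73.1 and 81.6 in wt control and 22.5, 11.6 and 19.8 in wt heat, and 107, 81.3 and 72.8 in hop control and 31.8, 8.71 and 14.4 in hop heat. It fell by 2.12 ± 0.36 and 2.35 ± 0.36. AT4G23930 fell from 34.7, 37.5 and 35.8 to 6.61, 3.31 and 9.23 in wt and from 31.6, 33.2 and 38.3 to 7.95, 5.80 and 2.06 in hop. AT2G35460 was at 0 in all 6 control libraries and held 5.29, 4.96 and 3.95 in wt heat and 5.30, 7.26 and 11.4 in hop heat. Against a floor of 3 fragments over the control group, its level was at least 6.50-fold higher in wt heat and at least 10.9-fold higher in hop heat, a bound that covers counting error only.

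**Figure D3:**
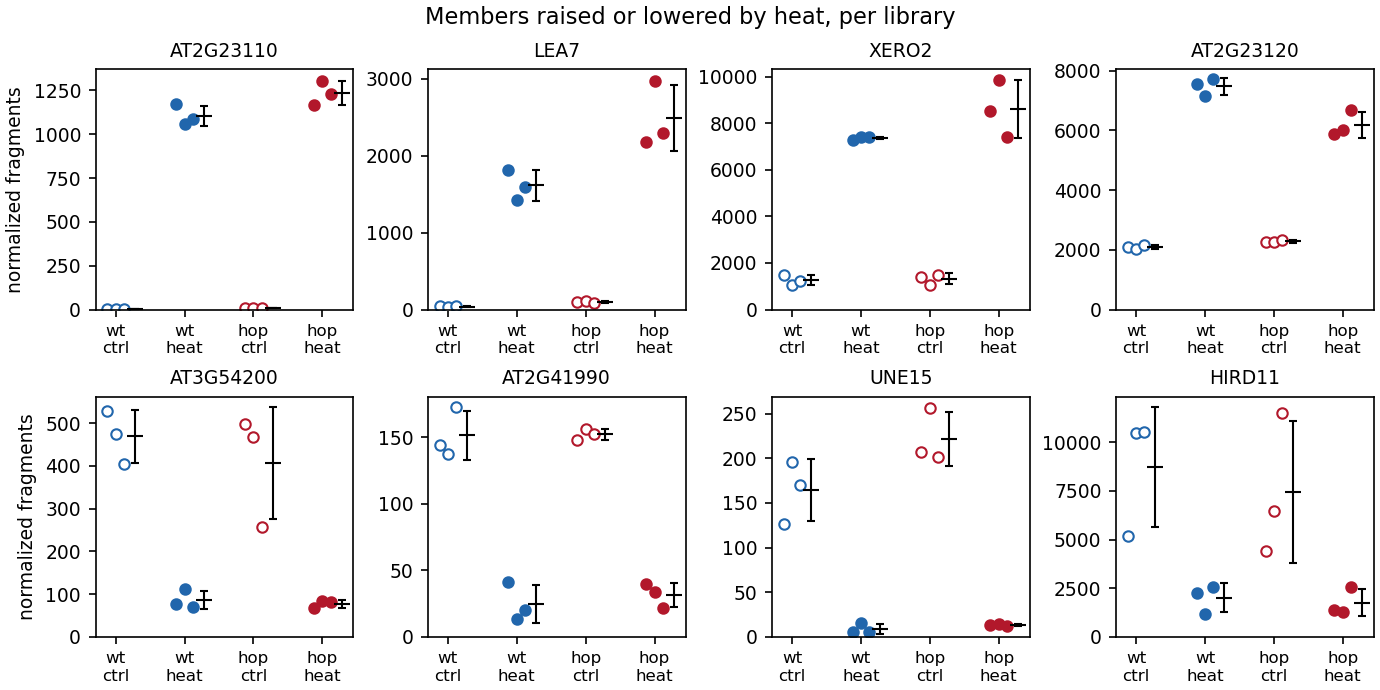
Normalized fragments per library for 8 members that changed in heat; each point is 1 library, open for control and filled for heat, blue for wt and red for hop, and the bar gives mean ± SD (n = 3). In each panel the control and heat libraries of a genotype do not overlap.

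For some abundant members the differences were small. AT3G62580 held 628, 782 and 788 in wt control and 905, 806 and 850 in wt heat, and 661, 755 and 716 in hop control and 835, 781 and 782 in hop heat. It was not called, at 0.23 ± 0.10 in wt and 0.17 ± 0.10 in hop, was called lower by library total alone, at -0.67 and -0.75, and was called higher in wt without wt control replicate 2 or 3 (adjusted p = 0.0442 and 0.0419). AT4G13270, a hydroxyproline-rich member, held 537, 531 and 571 in wt control and 986, 874 and 865 in wt heat, and 574, 546 and 545 in hop control and 904, 868 and 807 in hop heat. Its rises of 0.73 ± 0.09 and 0.63 ± 0.09 became -0.15, not called, and -0.29, called lower, by library total alone. It overlaps the long non-coding gene AT4G06060 on the opposite strand by 327 bases.

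At control, the libraries labelled hop had higher levels of several LEA genes than wt. Of the 71 tested members, 6 were called higher in hop and 0 lower, against 0.344% of all tested genes called higher and 0.487% lower (0.831% in all). All 6 were among the 34 other LEA members, whose median log2 fold change was 0.72, against 0.01 for all tested genes. The 7 dehydrins had a median of 0.08 and the 30 hydroxyproline-rich members one of 0.03, and none of either was called. The hop and wt control libraries did not overlap in 18 members that were higher in hop and in 4 that were lower, and these shares of all genes were 8.79% and 8.9%. Of the 34 other LEA members, 16 were higher without overlap and 1 was lower.

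LEA7 had the smallest adjusted p at control. Its hop control libraries (96.5, 116 and 87.1) all lay above its wt control libraries (39.2, 36.3 and 40.8), a log2 fold change of 1.33 ± 0.14 (adjusted p = 0.000237). AT3G02480 was higher by 1.22 ± 0.15 (adjusted p = 0.00082), with 247, 253 and 199 in hop against 107, 91.5 and 98.8 in wt. Both calls held without each of the 6 control libraries in turn. AT3G17520 held 161, 134 and 95.5 in hop control and 42.9, 48.5 and 55.8 in wt control, without overlap, and was higher by 1.36 ± 0.25 (adjusted p = 0.0175). That call was lost without either of hop control replicates 1 and 2 and without any wt control replicate, with adjusted p-values of 0.0552 to 0.0762. AT2G42560, with a LEA domain, held 40.1, 38.2 and 15.6 in hop control and 6.39, 8.60 and 5.73 in wt control, a difference of 1.94 ± 0.37 (adjusted p = 0.0233). It was lost without either of hop control replicates 1 and 2 and without any wt control replicate, at 0.0588 to 0.12, and with the compared groups alone (0.0847).

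AT4G36600 was called at the edge of the threshold, at 1.39 ± 0.31 (adjusted p = 0.0493), with 23.1, 21.9 and 11.7 in hop control and 9.13, 7.37 and 3.58 in wt control. The call was lost when wt control replicates 2 or 3, or hop control replicates 1 or 2, were left out, at 0.105 to 0.221. It was also lost with a pseudocount of 0.5 or 5, with no filter, by library total alone and with the compared groups alone, at 0.0516 to 0.209. AT2G23110 held 8.54, 7.78 and 10.4 in hop control and 4.56, 3.07 and 5.01 in wt control, a difference of 0.94 ± 0.17 (adjusted p = 0.0175). It was lost without wt control replicate 2 (0.0618) or hop control replicate 3 (0.0587), in edgeR (0.162) and DESeq2 (0.203), by library total alone (0.269), with a pseudocount of 5 (0.0516) and with the compared groups alone (0.265). Without wt control replicates 1, 2 and 3 in turn, 4, 2 and 3 members were called higher, and without hop control replicates 1, 2 and 3 in turn, 3, 3 and 6.

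Same-numbered control libraries of wt and hop deviated together from their group means (r = 0.313 to 0.502 over the 3 pairs). With the replicate number as a block, 7 members were called higher at control, AT3G15670 being the addition (1.34 ± 0.32, adjusted p = 0.0764 without and 0.0153 with the block). In the 6 control libraries alone with that block, a fit added after seeing the data, 13 members were called higher and 0 lower, and AT2G23110 was not among them (adjusted p = 0.123). More genes were called there in general. Of all 23827 tested genes, 1156 were called in that fit and 274 with the block over all 12 libraries, against 198 without a block.

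Under heat, 10 members were called higher in hop than in wt and 1 was called lower, against 3.73% of all tested genes called higher and 4.89% lower (8.62% in all). Of the 34 other LEA members, 8 were higher and 0 lower, with a median log2 fold change of 0.72 against 0.04 for all tested genes. Of the 30 hydroxyproline-rich members 2 were higher and 1 lower, with a median of 0.01, and of the 7 dehydrins none was called, with a median of 0.22. Groups did not overlap in 15 members that were higher in hop and in 3 that were lower, and these shares of all genes were 14.3% and 11.7%. In the 2 comparisons of genotypes, 5 members were called higher in both (5 of 6 at control, 5 of 10 in heat). The comparisons share no library, but they come from 1 fit with a shared estimate of spread, so their calls are not independent. The 5 were LEA7, AT2G42560, AT3G02480, AT3G17520 and AT4G36600. The share of all tested genes called higher in both was not computed, so the overlap is not read as particular to the members. In edgeR, scaling by library total alone in place of TMM took the median of all genes in this comparison from 0.01 to -0.08, and by library total alone 7 members were higher and 1 lower.

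AT3G02480 was higher in hop heat by 1.09 ± 0.15 (adjusted p = 0.000629), with 1254, 1576 and 1404 against 521, 763 and 721 in wt heat. AT3G17520 held 239, 296 and 359 in hop heat and 55.5, 111 and 87.0 in wt heat, a difference of 1.84 ± 0.25 (adjusted p = 0.000629). AT3G53040 held 119, 132 and 215 in hop heat and 47.6, 54.6 and 39.5 in wt heat, a difference of 1.66 ± 0.27 (adjusted p = 0.00205). These 3 genes had no overlap between the genotypes in heat and kept their calls without each of the 6 heat libraries in turn. At control AT3G53040 held 23.9, 19.8 and 26 in hop and 9.13, 14.7 and 15.8 in wt, which was not called (0.80 ± 0.27, adjusted p = 0.24).

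AT2G42560 held 90.1, 142 and 171 in hop heat and 22.5, 48.0 and 39.5 in wt heat, a difference of 1.86 ± 0.37 (adjusted p = 0.00742). AT3G15670 held 220, 326 and 310 in hop heat and 80.6, 179 and 71.2 in wt heat, a difference of 1.47 ± 0.32 (adjusted p = 0.013). LEA18 held 127, 145 and 140 in hop heat and 29.1, 94.3 and 35.6 in wt heat, a difference of 1.55 ± 0.35 (adjusted p = 0.014). Groups did not overlap in these 3 genes, and in each of them wt heat replicate 2 was the highest wt library. The calls of AT3G15670 and LEA18 were lost without wt heat replicate 1 or 3 or hop heat replicate 2, at adjusted p-values of 0.0519 to 0.0593.

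LEA7 was higher by 0.62 ± 0.14 in hop heat (adjusted p = 0.014), and lost its call without wt heat replicate 2 (0.0558) or hop heat replicate 2 (0.0673) and by library total alone (0.0799). AT4G36600 was higher by 1.17 ± 0.31 (adjusted p = 0.0289), without overlap, and lost its call without any 1 of the 6 heat libraries, at 0.0618 to 0.0784. Without wt heat replicates 1, 2 and 3 in turn, 6, 12 and 6 members were called higher, and without hop heat replicates 1, 2 and 3, 9, 5 and 10. AT2G23110 did not separate the genotypes in heat (0.16 ± 0.17, adjusted p = 0.61).

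In heat, 3 hydroxyproline-rich members were called between genotypes. AT4G26490 held 17.2, 17.4 and 16.5 in hop heat and 6.61, 6.62 and 6.59 in wt heat, and 23.9, 19.1 and 21.4 in hop control and 20.1, 25.2 and 17.9 in wt control. Its level fell in heat in wt by 1.52 ± 0.25 and was not called in hop (-0.31 ± 0.25), and the difference between genotypes in heat was 1.25 ± 0.25 (adjusted p = 0.00828). That call was lost in DESeq2 (0.0657) and by library total alone (0.0615), and by library total alone the fall in hop was called (-1.24, adjusted p = 0.000447). The gene lies opposite the long non-coding gene AT4G26488 over 1032 bases. AT3G52470 held 1071, 1106 and 953 in hop heat and 841, 877 and 709 in wt heat, a difference of 0.37 ± 0.11 (adjusted p = 0.0464) that was lost without wt heat replicate 1 or 3 or hop heat replicate 1 or 2, at 0.0842 to 0.173. It was also lost in edgeR (0.0589), by library total alone (0.226), with no filter (0.0541) and with the compared groups alone (0.0671). AT5G06330 was the member called lower, with 46.4, 63.8 and 47.5 in hop heat and 88.6, 67.8 and 84.3 in wt heat (-0.61 ± 0.17, adjusted p = 0.039). It was lost without wt heat replicate 1 or 3 or hop heat replicate 1 or 3, at 0.0812 to 0.13, and with the compared groups alone (0.107).

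**Figure D4:**
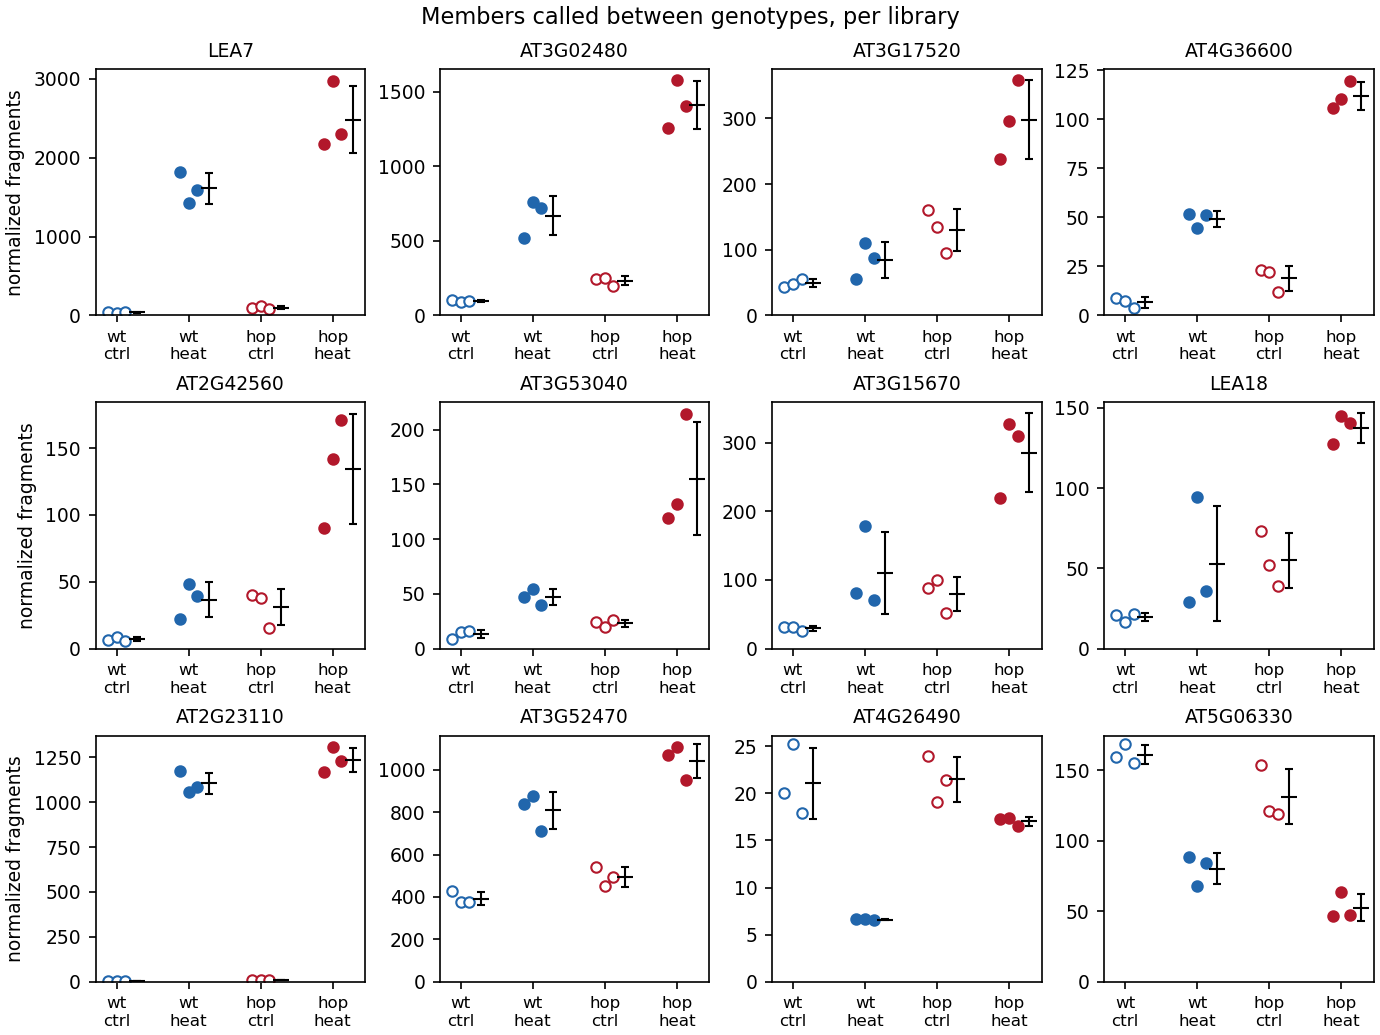
Normalized fragments per library for the 12 members called between genotypes at control, in heat, or both; each point is 1 library, open for control and filled for heat, blue for wt and red for hop, with mean ± SD (n = 3). In the panel of LEA7 all 4 groups are apart, and in that of AT5G06330 hop heat lies below wt heat.

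**Figure D5:**
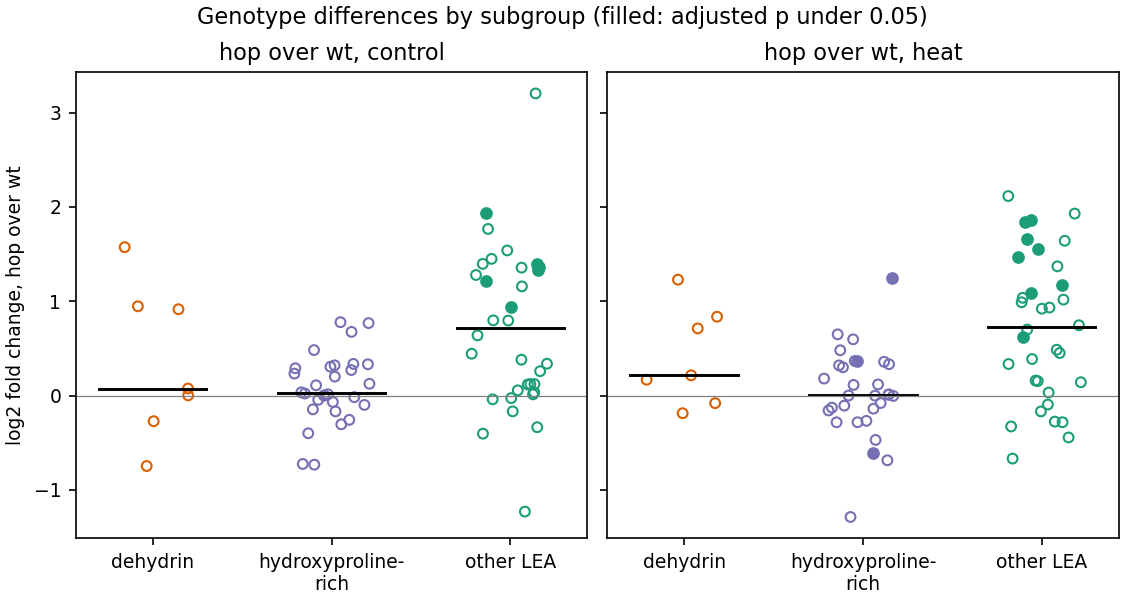
Log2 fold change of hop over wt at control (left) and in heat (right) for the 7 dehydrins, 30 hydroxyproline-rich members and 34 other LEA members tested; each point is 1 gene, filled where the adjusted p was under 0.05, and the bar is the median. The other LEA members have medians of 0.72 in both panels, and the hydroxyproline-rich members 0.03 and 0.01.

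The response to heat itself was not called different between the genotypes for any member. The interaction gave 0 calls among the 71 members in limma (0.0504% of all genes called) and 0 in edgeR, and 7 members had an unadjusted p under 0.05. DESeq2 called 1, AT2G23120, whose response in hop minus that in wt was -0.40 on the log2 scale (adjusted p = 0.0346). In limma the same value was -0.40 ± 0.12 (adjusted p = 0.234). For LEA7 the interaction was -0.72 ± 0.20 (adjusted p = 0.201) and for AT4G26490 it was 1.21 ± 0.36 (adjusted p = 0.238).

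Storage protein and oil body genes of the seed, the other tissue in which LEA genes are high, were examined beside the genotype results. Of 14 such markers 13 were tested, and 0 were called between genotypes at control. In heat 1 was called, the oleosin OLEO3, higher in hop by 2.37 on the log2 scale (adjusted p = 0.0044), which held at most 5.80 fragments in any library and was not called in DESeq2. Their summed level was 50.1 to 272 normalized fragments in wt control and 139 to 729 in hop control, and 50.2 to 786 in wt heat and 252 to 689 in hop heat. Of the 13 tested markers, 6 had a positive and 7 a negative log2 fold change of hop over wt at control (median -0.24). In heat 10 were positive and 3 negative (median 0.41). The genotypes did not overlap in 3 markers higher in hop and in 0 lower, at control and again in heat. Of all genes, 8.79% and 8.9% did so at control, and 14.3% and 11.7% in heat. PER1 held 99.9, 85.6 and 37.7 in hop control and 29.2, 27.6 and 23.6 in wt control. OLEO2 held 173, 149 and 44.8 in hop control and 32.9, 29.5 and 9.31 in wt control. The 4 oleosins alone summed to 16.5 to 54.1 in wt control and 67.6 to 260 in hop control, without overlap, and to 11.9 to 136 and 115 to 260 in heat, with overlap. OLEO1 and OLEO2 had the highest oleosin means in hop control (62.2 and 122). OLEO4 was lower there (0.80) than in wt control (1.53), both close to the floor of 3 fragments over a group, 0.73. Of the 14 markers, 0 to 8 were at 0 in a wt library and 1 to 5 in a hop library. Wt heat replicate 2 had the highest summed marker level of wt heat, and it was the highest wt heat library in 21 of the 34 other LEA members, against 39.1% of all genes. Hop control replicate 3 had the lowest marker sum of hop control and was the lowest in 17 of the 34 (50%), against 37.9% of all genes. Hop heat replicate 1 had the lowest marker sum (252) and was the lowest in 19 of the 34 (55.9%), against 31.1% of all genes. Hop heat replicate 3 had the highest sum (689) and was the highest in 15 of the 34 (44.1%), against 34.99%. The wt control libraries did not show such a match of marker sum and rank. Wt control replicate 2 had the highest sum there (272) and was the highest in 11 of the 34 (32.4%), against 33.5% of all genes. Wt control replicate 3 had the lowest sum (50.1) and was the lowest in 8 of the 34 (23.5%), against 27.8%. The part of these markers in the genotype differences was not tested.

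Known regulators of LEA genes were examined in the same fit. Of 16 seed maturation regulators 13 were tested; at control 0 were called, and in heat 1 was higher in hop (ABI3, 1.90, adjusted p = 0.048) and 1 lower (bZIP53, -0.49, adjusted p = 0.042), a share of 15.4% against 8.62% of all genes. The ABI3 call was lost in edgeR and DESeq2. None of the 4 abscisic acid response bZIP factors (ABF1 to ABF4) was called between genotypes, and of 6 DREB and CBF factors CBF1 alone was (16.7%), lower in hop heat by 1.55 (adjusted p = 0.024) and not called in edgeR or DESeq2. In heat, DREB2A, a factor of drought and heat responses, rose by 4.93 ± 0.16 in wt and 5.02 ± 0.16 in hop, and DREB2B and DREB2C also rose in both genotypes. CBF1, CBF2 and CBF3, the factors of the cold response, fell in both. Of the 13 tested seed maturation regulators, 6 rose and 4 fell in wt, and 6 rose and 3 fell in hop. Of all genes, 33.2% rose and 35.8% fell in wt, and 33.3% and 35.2% in hop. By library total alone, 2 of these regulators rose and 5 fell in wt, and 3 and 4 in hop. Among those that fell, ABI5, the bZIP factor of seed abscisic acid signalling, did so by 2.76 ± 0.40 in wt and 2.63 ± 0.40 in hop. ABF3 and ABF4 rose and ABF1 and ABF2 fell in both genotypes, although by library total alone ABF3 was not called in wt (0.26) and ABF4 was not called in hop (0.36).

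Of the 10 well-known genes that the rule leaves out, 8 rose in heat in each genotype, KIN1 by 3.96 ± 0.12 in wt and COR47 by 3.87 ± 0.10, and by library total alone 7 rose and COR15B fell. Of all tested genes, 33.2% were called higher in heat in wt and 33.3% in hop. Between genotypes RD29B was higher in hop at control (0.97 ± 0.17, adjusted p = 0.015), and RD29B, EM6, COR15A, KIN1 and KIN2 were higher in hop heat. Of all tested genes, 0.344% were called higher in hop at control and 3.73% in heat. By library total alone, 3 of the 10 were called higher in hop heat. In the authors' deposited table, 26 of the members were up and 18 down in heat in wt, 25 and 16 in hop, 8 and 0 in hop against wt at control, and 12 and 2 in heat, at an adjusted p under 0.05. In the same order, 71, 78, 61 and 53 members had an adjusted p there. Of the 32833 genes, 15776, 15714, 458 and 2202 were called in these comparisons.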

How the data were processed

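Polyadenylated RNA of whole seedlings was sequenced after strand-keeping library preparation, per the labels' protocols. The submitters' processing notes list TopHat2 2.1.0, HTSeq and DESeq2 1.1.14. Not given in the sources used here are the build, the annotation and the counting settings, beyond the word stranded in the title of the deposited table. The expression signal the authors deposited consists, per the file headers, of normalized fragments, each gene's fragment count over a factor common to its library. The log2 fold changes of the authors' deposited table and the adjusted p-values beside them entered no test. Every value came out as a whole number of fragments within a tolerance of 0.01 (100% of values), which gave the depths and the counts for edgeR 4.0.16 and DESeq2 1.42.0. Because the table is normalized, limma 3.58.1 (R 4.3.3, trend and robust) on log2(value + 1) was the test, with 4 group means over 12 libraries, for genes that reached 1 in 3 or more libraries. Fold changes are on that scale, which understates those of low genes. Calls were made where the adjusted p (Benjamini-Hochberg) was below 0.05 over all 23827 tested genes, and the test was tested on simulated data. The simulation had the same spread for all genes and no heat effect common to both genotypes. It changed no gene of low level, so it does not speak for the low members.

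Members, lists and tests were chosen with earlier results of these data known. Per-library values are given for the 8 largest rises and 8 largest falls per heat comparison (called, absolute log2 fold change of at least 1, mean of at least 10 in the higher group), for each member called between genotypes, and for the 10 highest means. Same-numbered libraries deviated together at control in every pair (r = 0.313 to 0.502) and less so in heat (r = 0.0534 to 0.298, all positive). The numbers were taken to pair wt with hop at control. The main limma fit did not use this pairing, which entered as the replicate block among the alternatives. RefSeq held 32548 of the 32833 genes by locus tag. Promoters came from RefSeq's TAIR10.1 genome, and whether the authors used that annotation is not known. Alternatives were another test or scaling, another pseudocount (0.5 or 5), another filter (none, or a value of 10 in 3 libraries), the replicate block, the compared groups alone, and each library left out.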

Additional observations from a re-analysis of the deposited data

How the results depend on the processing

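Over 68 results for single members and 1099 alternatives, 1017 kept their direction and their side of the threshold, 62 fell below it, 10 rose past it and 10 changed sign. Library size alone moved most: members called higher in heat came to 16 in wt and 14 in hop, and those called lower in hop to 35. It also turned the heat response of AT2G44060 (-0.0866 in wt, -0.0067 in hop), AT3G62580 (-0.67, -0.75), AT4G13270 (-0.15, -0.29) and ERD14 in hop (-0.0794), and the control difference of AT4G26490 (-0.0831), which ranged from -0.0691 to 0.1663 when 1 library was left out and was also below 0 without wt control replicate 3 and hop control replicate 1. At control, 3 members were higher with the compared groups alone and 13 in the control libraries alone with the replicate block, a fit chosen after seeing the data. These fits called 82 and 1156 of all tested genes, against 198 with all 12 libraries and no block. In heat, members lower in hop numbered 2 (AT5G06330 and AT2G23120) with edgeR, DESeq2, the stricter filter, the replicate block and edgeR with the block, the last chosen after seeing the data, and 0 with the compared groups alone. DESeq2 called 1 member lower in the interaction. The causes were not tested. The replicate block added AT3G15670 at control, and under it 7 members were higher there.

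Leaving out 1 library at a time gave 26 to 29 members higher and 18 to 20 lower in wt heat, 24 to 25 and 16 to 19 in hop heat, 2 to 6 and 0 to 0 for hop against wt at control, 5 to 12 and 0 to 1 in heat, and 0 in each direction for the interaction. Of all members, 31 had a mean under 10 normalized fragments. Of those tested, 21 were called in no comparison, which does not show that they did not differ.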
